A study of Danio rerio with 6 samples.

Results

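The Hox genes are described here in RNA of adult zebrafish spinal cord at 1 week after transection (1 wpi) and after sham surgery. Members were taken by symbol: every gene whose name begins with hoxa, hoxb, hoxc or hoxd and a number, and that had 10 or more reads in 3 or more of the 6 libraries. The files name 48 such genes among 14781, and 39 met the rule. Of these, 38 had enough reads for the test of injury across 12804 genes. The remaining member, hoxc13b, had 13, 9 and 5 reads in injured replicates 1, 2 and 3, against 10 in each sham replicate, and was not tested.

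Bulk RNA-seq was run on 3 injured and 3 sham libraries of adult zebrafish, which the methods give as Ekkwill strain, of both sexes. In injured fish the vertebral column was cut across at mid-trunk, between the dorsal fin and the operculum. In sham-operated clutchmates skin and muscle were opened and the cord was left whole. In both groups the tissue taken was the cord reaching 2 mm to each side, rostral and caudal, of the lesion level. The labels name no transgene or mutation. They call the controls sham in their titles and uninjured as treatment, and they were taken as sham. How many fish went into a sample is not given, so a p-value here measures only how far these samples spread, which may be technical in part.

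Hox genes encode homeodomain transcription factors that give cells their position along the head-to-tail axis. They sit in clusters in which the order of the genes along the chromosome matches the order of their expression along the body: genes of low paralog number begin in the hindbrain, middle numbers in the trunk, and the highest numbers in the tail. In the spinal cord this code sets which motor neurons form at limb and trunk levels, and part of it is kept in adult tissue. Zebrafish carry a further genome duplication and hold 7 Hox clusters, called hoxaa, hoxab, hoxba, hoxbb, hoxca, hoxcb and hoxda. The letter after hox gives the ancestral cluster, the number the paralog group, and the last letter the copy.

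Reads counted in genes numbered 21926842 to 30147448 in injured libraries and 19310220 to 24161526 in sham libraries. Levels are given as CPM, the reads of a gene scaled to a library of fixed size after TMM scaling, which sets libraries to a common size from genes in the middle of the distribution. CPM does not divide by transcript length, so levels were compared between libraries for 1 gene and not between genes. Sham replicate 1 stood apart from the other sham libraries. The summed CPM of 12 oocyte genes was 10.9 to 23.5 in injured libraries, against 564 in sham replicate 1 and 13.4 to 38.0 in the other sham libraries. That of 13 fibroblast genes was 11645 to 16616 in injured libraries, against 12564 in sham replicate 1 and 2679 to 3442 in the others, and that of 20 skeletal muscle genes was 15280 to 49494 in injured libraries, against 25447 and 8563 to 12051. For 9 genes of microglia and macrophages the sum was 10267 to 11302 in injured libraries, against 5657 in sham replicate 1 and 3513 to 3647 in the others. Not every list leaned towards the injured libraries: 12 genes of ependymo-radial glia summed to 24240 to 25150 there, against 17271 and 20219 to 23092. Counts of calls and the main fold changes are given with all 6 libraries and again without sham replicate 1. Forebrain and midbrain genes were nearly absent: 8 of the 10 listed genes had 0 to 11 reads in each library, and the other two, six3b and dmbx1b, did not exceed 1.35 CPM.

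Most Hox genes were read lower in injured cords than in sham cords, by a modest amount, and few single differences passed the test with all 6 libraries. edgeR's quasi-likelihood test with Benjamini-Hochberg adjustment over all genes called 1 of 38 Hox genes lower, hoxd4a, and none higher. Over all genes it called 618 of 12804 lower, 4.83%, and 744 higher, 5.81%. At an unadjusted p under 0.05, 11 of 38 Hox genes differed, each of them lower, against 38.2% of all genes in either direction and 19.6% lower, and DESeq2 called 6 lower and 0 higher, against 14.8% of all genes in each direction. Fold changes were negative for 36 of 38 Hox genes, against 52.7% of all genes. They had a median of -0.37 on the log2 scale over Hox genes and -0.03 over all genes tested. The range ran from -1.0 for hoxb5b to 0.05 for hoxa11b.

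Reads of all 39 Hox genes together came to 1346, 1320 and 1324 CPM in injured replicates 1, 2 and 3, against 1194, 1789 and 1801 CPM in sham replicates 1, 2 and 3. Sham replicate 1 was below every injured library, and the other two sham libraries were above all of them. The groups therefore overlapped in this sum. In bulk tissue, fewer cells that express a gene and less of its RNA in each cell cannot be told apart.

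Without sham replicate 1, edgeR called 30 of 39 Hox genes lower and none higher, against 28.2% of all genes called lower and 29.0% called higher. The median over the 38 genes of the full test was then -0.53. The lowest adjusted p was 0.000192, for hoxd3a. DESeq2 without the same library called 28 lower, against 26.3% of all genes, and limma-voom on all 6 libraries with a weight for each sample called 32 lower, against 29.7% of all genes. With RLE or upper-quartile scaling in place of TMM and that library left out, edgeR called 30 and 29 lower, against 28.1% and 27.2% of all genes. The members not called by edgeR without sham replicate 1 were hoxb1a, hoxc4a, hoxc5a, hoxb8b, hoxc9a, hoxa11b, hoxc11a, hoxd11a and hoxc13b. Leaving out any other library left edgeR with 0 Hox genes and 0 genes in all. In those fits 4 to 7 of 39 Hox genes had an unadjusted p under 0.05, against 3026 to 3440 of 12873 to 12965 genes. DESeq2 then called 0 to 2 Hox genes lower, against 6.36% to 7.27% of all genes. With no filter on low counts edgeR called 0 Hox genes lower with all libraries, against 3.39% of all genes.

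**Figure D1:**
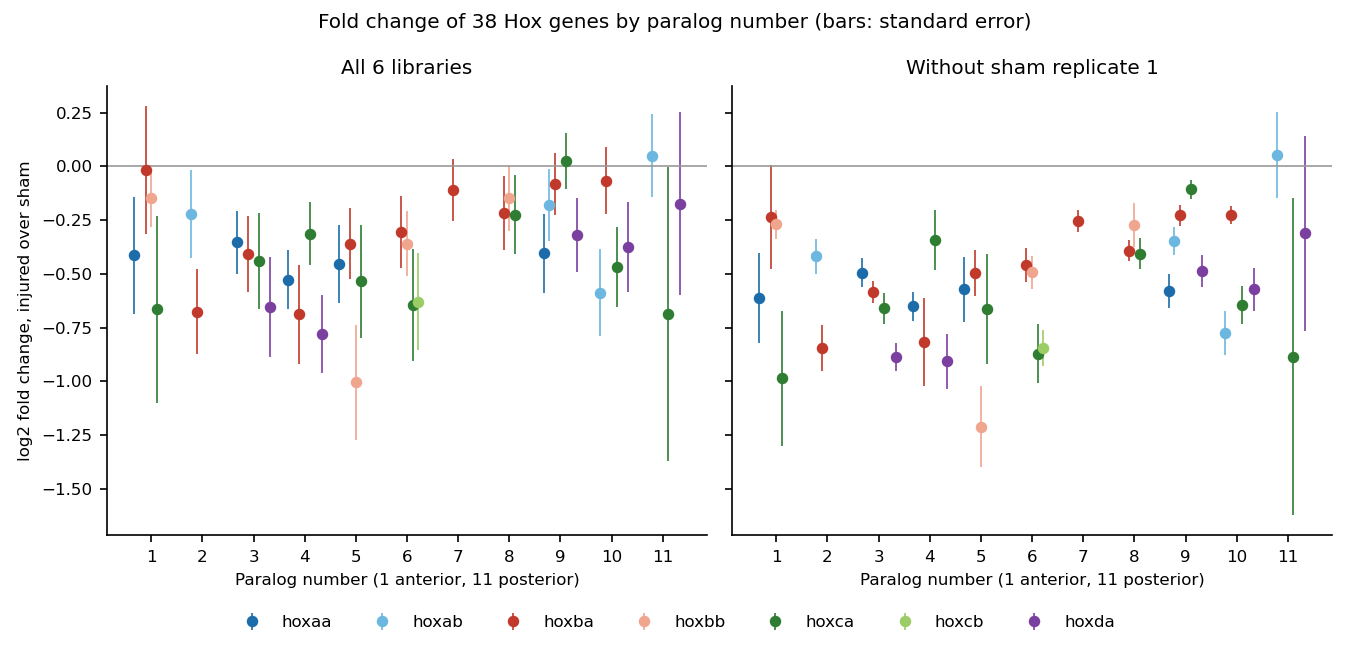
The log2 fold change (injured over sham, edgeR, y axis) of each of 38 Hox genes by its paralog number (x axis), coloured by cluster, with its standard error; all 6 libraries on the left and without sham replicate 1 on the right. With all libraries 36 of 38 points are below 0, with large errors; without sham replicate 1 the errors shrink and the median moves to -0.53.

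Groups that did not overlap give a view that needs no model. In 8 of 38 Hox genes all 3 injured libraries were below all 3 sham libraries, against 21.8% of all genes. These were hoxb2a, hoxd3a, hoxa4a, hoxb4a, hoxc4a, hoxd4a, hoxb5b and hoxb6b, and each had p = 0.1 in a two-sided exact permutation test, the smallest that 3 against 3 samples allow. The count of 8 of 38 was near the share over all genes. The 8 include all 4 members of paralog group 4, a group singled out after its values were seen. No Hox gene had all injured libraries above all sham libraries, against 22.9% of all genes. Against sham replicates 2 and 3 alone, 34 of 38 Hox genes were lower in every injured library, against 37.3% of all genes.

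Along the axis, paralog groups 1 to 11 and 13 had members, and group 12 had none. Of 9 symbols of groups 12 and 13, the genes of the tail end, hoxc13b was the sole member, and no library held more than 13 reads of any of them. A floor was set at 3 reads, which is 0.0995 to 0.155 CPM at these depths. Levels below it were taken as too low to place. Of group 11, hoxa11b, hoxc11a and hoxd11a were members and hoxa11a was not, with at most 16 reads in a library. Most of the forebrain and midbrain genes above and the genes of groups 12 and 13 were thus read at or near 0. six3b had 0.982, 0.669 and 0.910 CPM in injured libraries, against 0.593, 0.0464 and 0 CPM in sham libraries. With all libraries edgeR did not call six3b (adjusted p = 0.198). Without sham replicate 1 edgeR called six3b higher (log2 fold change 4.99, adjusted p = 0.00232), against 29.0% of all genes, and did not call dmbx1b. In six3b sham replicates 2 and 3 lay below the floor, so the size of this fold change is not reliable.

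Of the anterior members, paralog groups 1 to 3, none of 10 was called with all libraries, where 4.83% of all genes were called lower, and 9 were called lower without sham replicate 1, where 28.2% of all genes were. Their median log2 fold change was -0.41, and -0.60 without that library. hoxd3a, a group 3 gene that in mouse acts in the neck and cervical region, had 47.2, 45.8 and 46.5 CPM in injured replicates 1, 2 and 3, against 47.5, 80.9 and 91.1 CPM in sham replicates 1, 2 and 3. The injured libraries were close to one another, and sham replicate 1 was just above them while the other two sham libraries were far higher. Its fitted log2 fold change was -0.65 (SE 0.23, edgeR adjusted p = 0.0993), and -0.89 (SE 0.064) without sham replicate 1.

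hoxc3a, a gene of a group 3 locus that mammals have lost from their HoxC cluster, had 69.9, 63.2 and 59.9 CPM in injured replicates 1, 2 and 3, against 58.3, 101 and 102 CPM in sham replicates. Here sham replicate 1 was lower than every injured library, so the groups overlapped. Its log2 fold change was -0.44 (SE 0.22, edgeR adjusted p = 0.193), and -0.66 without that sham library (adjusted p = 0.000716). hoxb2a, which in zebrafish is expressed from the hindbrain backwards, had 5.01, 4.87 and 4.73 CPM in injured libraries, against 5.83, 8.36 and 9.16 CPM in sham libraries. The injured values were all below the sham values, and hoxb2a had the lowest fold change of its band, -0.68 (SE 0.20, edgeR adjusted p = 0.0686), and -0.84 without sham replicate 1. DESeq2 called it lower (adjusted p = 0.0251), and hoxd3a as well (adjusted p = 0.0346).

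hoxb1a, which in zebrafish patterns rhombomere 4 of the hindbrain and its facial motor neurons, was read at 1.47, 1.3 and 1.82 CPM in injured libraries, against 1.04, 1.76 and 1.83 CPM in sham libraries. The groups overlapped over their whole range. It had the highest fold change of the band among genes that averaged 1 CPM or more, -0.02 (SE 0.30), and -0.23 without sham replicate 1, on 21 to 44 reads per library. The remaining genes of the band, hoxa1a, hoxb1b, hoxc1a, hoxa2b, hoxa3a and hoxb3a, had fold changes from -0.66 (hoxc1a) to -0.15 (hoxb1b), and from -0.99 to -0.27 for the same pair of genes without that library.

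The band of groups 4 and 5, genes that begin at the border of hindbrain and spinal cord, held the one gene called with all libraries and the lowest fold change of all Hox genes. Its 8 members had a median log2 fold change of -0.53, and -0.66 without sham replicate 1, where 6 of 8 were called lower, against 28.2% of all genes. In 5 of the 8 all injured libraries were below all sham libraries, against 21.8% of all genes. hoxd4a, in zebrafish a gene of the caudal hindbrain and anterior cord, had 3.89, 3.94 and 3.41 CPM in injured replicates 1, 2 and 3, against 5.19, 7.11 and 6.99 CPM in sham replicates 1, 2 and 3. All injured values were below all sham values, with sham replicate 1 the lowest sham library. Its mean was 3.75 ± 0.29 CPM in injured cords and 6.43 ± 1.08 CPM in sham cords (SD, n = 3 each), and the fitted level in injured cords was 58.3% of that in sham cords. The log2 fold change was -0.78 (SE 0.18, edgeR adjusted p = 0.0484), close to the threshold of 0.05.

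In edgeR, leaving out any library but sham replicate 1 left no gene of the whole series called, and so the call of hoxd4a was lost. Without sham replicate 1 its log2 fold change was -0.91 (edgeR adjusted p = 0.00174), and with any other library left out its adjusted p was 0.139 to 0.177 and it was not called. DESeq2 on all libraries gave an adjusted p of 0.00653. DESeq2 also called hoxd4a lower when sham replicate 1, injured replicate 1 or injured replicate 2 was left out, and not when another library was. The reads of hoxd4a were 111, 106 and 75 in injured libraries, against 105, 153 and 168 in sham libraries.

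The other three genes of group 4 showed the same order of the groups without passing edgeR's test. hoxa4a had 16.8, 18.4 and 18.2 CPM in injured libraries, against 21.0, 28.1 and 27.8 CPM in sham libraries, a log2 fold change of -0.53 (SE 0.14, edgeR adjusted p = 0.057). hoxb4a had 2.59, 1.97 and 2.91 CPM in injured libraries, against 3.26, 4.37 and 4.41 CPM in sham libraries, a log2 fold change of -0.69 (SE 0.23, adjusted p = 0.0876). Both were called lower without sham replicate 1, at -0.65 and -0.82. hoxc4a had 3.47, 3.20 and 3.55 CPM in injured libraries, against 4.05, 4.18 and 4.45 CPM in sham libraries. In this gene sham replicate 1 lay with the other sham libraries, and the log2 fold change was smaller, -0.31 (SE 0.15, edgeR adjusted p = 0.173), and -0.34 without sham replicate 1 (adjusted p = 0.0832).

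hoxb5b, a gene that in zebrafish limits the number of heart progenitors and is also expressed in the anterior cord, had 4.21, 3.31 and 3.82 CPM in injured replicates 1, 2 and 3, against 5.24, 7.34 and 10.2 CPM in sham replicates. The groups did not overlap and the sham libraries spread widely. The log2 fold change was -1.0 (SE 0.27, edgeR adjusted p = 0.0599), and -1.21 without sham replicate 1. DESeq2 called hoxb5b lower (adjusted p = 0.0103). Its copy hoxb5a had 9.57, 10.8 and 9.97 CPM in injured libraries, against 10.4, 13.1 and 15.4 CPM in sham libraries, with a log2 fold change of -0.36 (edgeR adjusted p = 0.164), and -0.50 without sham replicate 1. The ratio of hoxb5b to hoxb5a reads, which needs no scaling, was 0.440, 0.307 and 0.384 in injured libraries, against 0.505, 0.560 and 0.659 in sham libraries, with no overlap. This pair was looked at after its values had been seen.

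**Figure D2:**
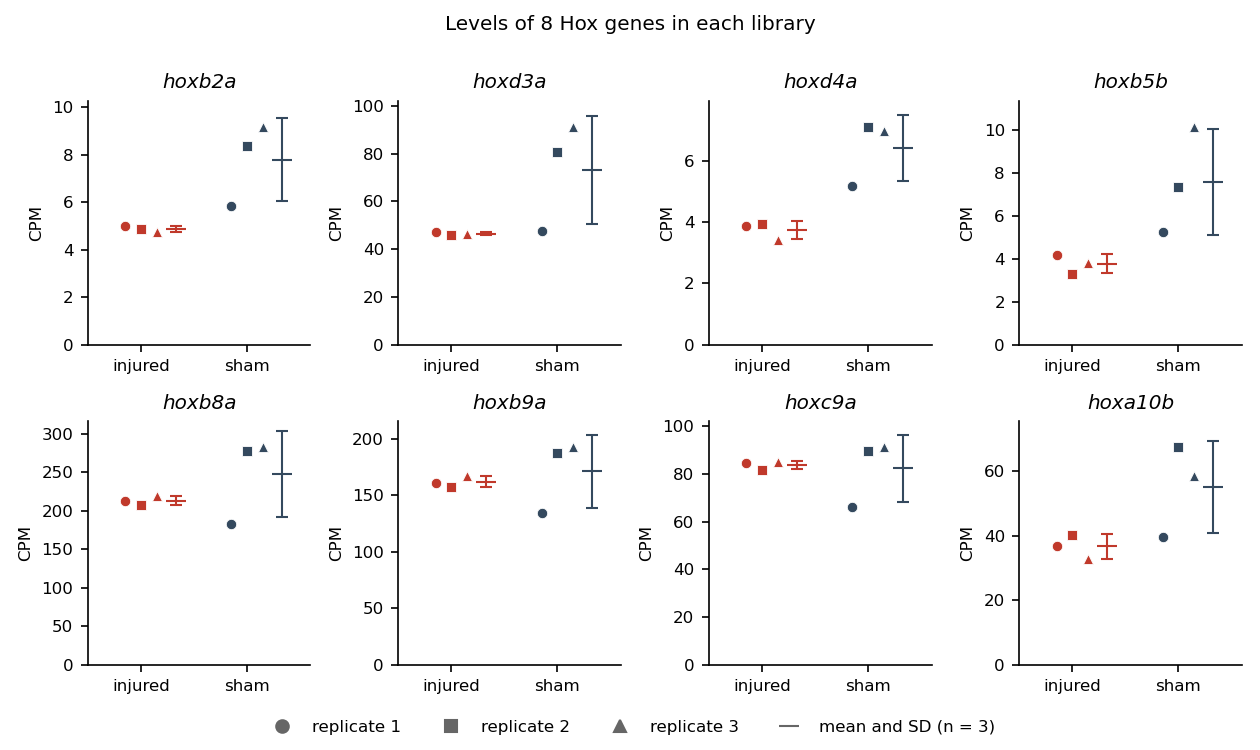
CPM (y axis, from 0) of 8 Hox genes in each injured and sham library (x axis), with the mean and SD of 3 libraries beside the points. In the upper row, hoxb2a, hoxd3a, hoxd4a and hoxb5b, the injured points lie below all sham points; in hoxb8a, hoxb9a and hoxc9a sham replicate 1 (circle) lies below the injured points.

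The trunk band of groups 6 to 8 had a median log2 fold change of -0.26 over 8 members, and -0.43 without sham replicate 1. With all libraries 0 of 8 were called, by edgeR or by DESeq2, against 4.83% and 14.8% of all genes called lower. In edgeR 2 had an unadjusted p under 0.05, against 38.2% of all genes in either direction. Without sham replicate 1 edgeR called 7 lower, against 28.2% of all genes. hoxc6a, whose mouse and chick counterpart marks motor neurons of the forelimb level, had 3.96, 3.90 and 4.23 CPM in injured libraries, against 4.15, 6.64 and 8.12 CPM in sham libraries. Sham replicate 1 lay among the injured values. Its log2 fold change, the lowest of the band, was -0.65 (SE 0.26, edgeR adjusted p = 0.127), and -0.87 without that library (adjusted p = 0.00283).

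hoxb8a, whose mouse counterpart acts in the dorsal horn, had 213, 208 and 219 CPM in injured replicates 1, 2 and 3, against 184, 278 and 283 CPM in sham replicates 1, 2 and 3. Sham replicate 1 was below all injured libraries and the others above them. For hoxb8a the log2 fold change was -0.22 (SE 0.17, edgeR adjusted p = 0.384), and -0.39 (SE 0.048) without sham replicate 1. hoxb7a had 114, 106 and 109 CPM in injured libraries, against 92.8, 132 and 129 CPM in sham libraries, the highest fold change of the band at -0.11 (SE 0.14), and was called lower at -0.25 without sham replicate 1 (edgeR adjusted p = 0.00645). hoxc8a, in mouse a gene of caudal forelimb motor pools, had 101, 87.1 and 95.1 CPM in injured libraries, against 80.4, 121 and 129 CPM in sham libraries. Its log2 fold change was -0.22 (SE 0.18), and -0.41 without that sham library. The same order of libraries held in hoxb8a, hoxb7a and hoxc8a: sham replicate 1 lowest, the injured libraries between, sham replicates 2 and 3 highest.

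Groups 9 and 10, which in mouse and chick mark thoracic and lumbar cord, had a median log2 fold change of -0.32 over 9 members, and -0.49 without sham replicate 1. None was called by edgeR with all libraries, where 4.83% of all genes were called lower. DESeq2 called 1 lower (hoxa10b), against 14.8% of all genes. Without sham replicate 1 edgeR called 8 lower, against 28.2% of all genes. hoxa10b had 36.8, 40.2 and 32.8 CPM in injured libraries, against 39.5, 67.3 and 58.3 CPM in sham libraries. Sham replicate 1 fell within the injured range. The log2 fold change, the lowest of the band, was -0.59 (SE 0.20, edgeR adjusted p = 0.0942), and -0.78 without that library. hoxd10a, in mouse a gene of lumbar motor neurons, had 53.6, 59.1 and 51.0 CPM in injured libraries, against 49.7, 88.9 and 73.6 CPM in sham libraries, with a log2 fold change of -0.37 (SE 0.21, edgeR adjusted p = 0.232), and -0.57 without sham replicate 1, where it was called lower.

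hoxc9a was the member of this band with the highest fold change. Its mouse counterpart sets thoracic motor neuron identity and holds back limb-level Hox genes. It had 84.7, 81.9 and 85.0 CPM in injured replicates, against 66.3, 89.7 and 91.1 CPM in sham replicates 1, 2 and 3. The injured libraries differed little, and the log2 fold change was 0.03 (SE 0.13), and -0.11 without sham replicate 1 (edgeR adjusted p = 0.0765). hoxb9a had 161, 158 and 167 CPM in injured libraries, against 134, 187 and 192 CPM in sham libraries, a log2 fold change of -0.08 (SE 0.15). hoxb10a, of a group that mammals lack in their HoxB cluster, had 69.6, 68.2 and 67.6 CPM in injured libraries, against 54.6, 79.7 and 80.5 CPM in sham libraries, a log2 fold change of -0.07 (SE 0.15). For hoxb9a and hoxb10a the change without sham replicate 1 was -0.23 in each case, and both were then called lower. hoxa9b had 58.1, 63.7 and 56.9 CPM in injured libraries, against 50.8, 74.0 and 77.6 CPM in sham libraries, and behaved likewise, with -0.18 (SE 0.17) and -0.35 without that library.

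Group 11, which begins at the caudal end of the trunk, was not called in any direction with or without sham replicate 1. hoxa11b, a gene that in zebrafish is also used in the paired fins, had 5.75, 6.09 and 4.14 CPM in injured libraries, against 5.14, 5.57 and 4.74 CPM in sham libraries. The groups overlapped and the log2 fold change was 0.05 (SE 0.19), with and without sham replicate 1. hoxd11a had 1.86, 4.35 and 2.91 CPM in injured libraries, against 2.72, 5.16 and 2.41 CPM in sham libraries, and its fold change of -0.17 had an SE of 0.42 (-0.31 without sham replicate 1). In hoxd11a the second replicate was the highest of each group. hoxc11a had 9, 23 and 18 reads in injured libraries, against 15, 44 and 10 in sham libraries, too few to place a difference.

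By cluster, the median log2 fold change was -0.41 in hoxaa (5 genes), -0.20 in hoxab (4), -0.26 in hoxba (10), -0.25 in hoxbb (4), -0.47 in hoxca (9) and -0.37 in hoxda (5). hoxcb had a single tested gene, hoxc6b, at -0.63. Each cluster therefore lay below the all-gene median of -0.03. Without sham replicate 1 the medians were -0.58 in hoxaa, -0.38 in hoxab and in hoxbb, -0.43 in hoxba, -0.66 in hoxca and -0.57 in hoxda, against -0.01 over all genes, and hoxc6b was at -0.84. In the 6 pairs of duplicated copies with both genes tested, hoxb5a and hoxb5b differed most, by 0.64 on the log2 scale. hoxc6a and hoxc6b were nearly alike, at -0.65 and -0.63, and so were hoxb6a and hoxb6b, at -0.30 and -0.36. Between copies of the other pairs the difference was at most 0.22.

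Sham replicate 1 was the lowest sham library in 35 of 38 Hox genes, against 43.7% of all genes. With the average of the other two sham libraries placed at 0 and the injured average at 1 on a log2 scale, its median position over the 38 genes was 1.06. It lay past the middle in 35 genes, and at or past the injured average in 20. It was at or below the highest injured library in 30 of 38, against 62.2% of all genes. The exceptions to its being the lowest sham library were hoxa11b, hoxc11a and hoxd11a. It was below the lowest injured library in 14 of 38 Hox genes, near the share over all genes, 4922 of 12804. By band this held in 0 of 8 genes of groups 4 and 5, 5 of 9 of groups 9 and 10 and 6 of 10 of groups 1 to 3. The values of tissue markers in this library are given above; their part in its Hox levels was not tested.

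**Figure D3:**
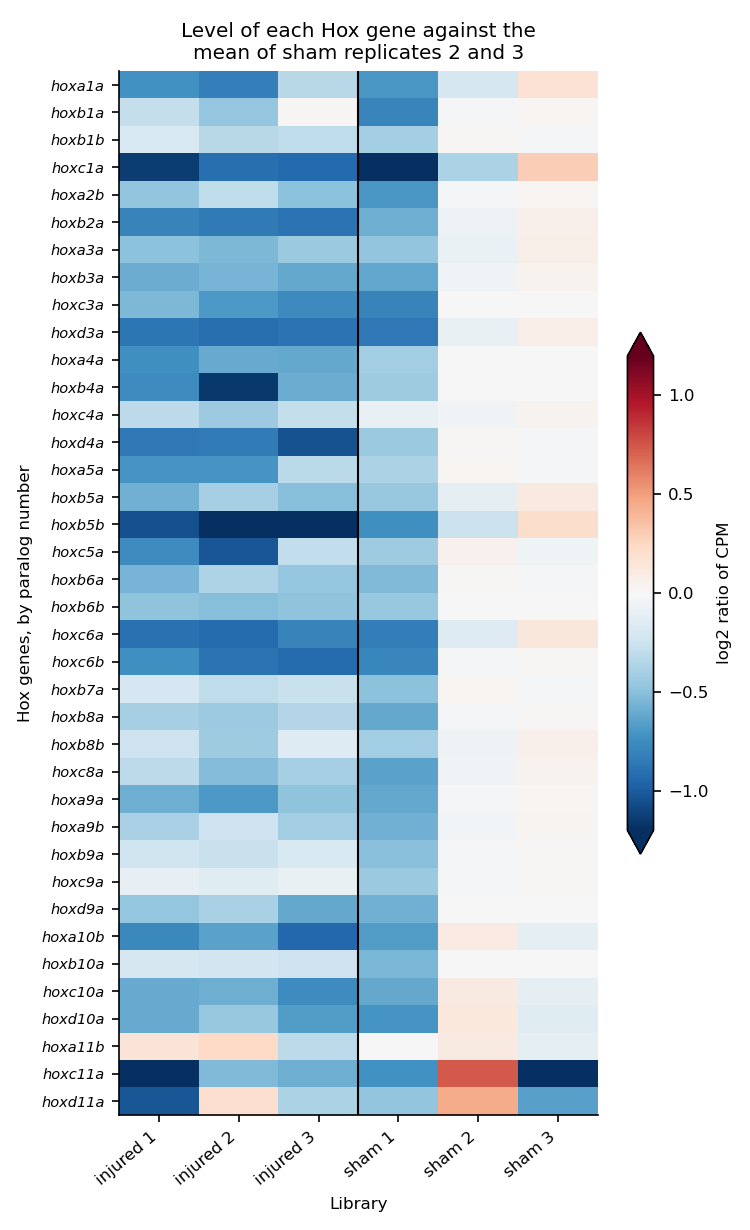
log2 ratio of the CPM of 38 Hox genes (rows, paralog 1 at the top to 11 at the bottom) to the mean of sham replicates 2 and 3, in each library (columns, injured on the left); colours past the ends of the scale take the end colour. Injured libraries and sham replicate 1 are blue, that is lower, in nearly all rows, and group 11 at the bottom is mixed.

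Because sham replicate 1 was low over nearly the whole family, the make-up of the Hox reads was also computed within each library, where neither depth nor scaling enters. This measure was chosen with the values in view. The share of Hox reads that fell in groups 1 to 3 was 18.4%, 18.1% and 17.9% in injured replicates 1, 2 and 3, against 19.3%, 20.1% and 21.3% in sham replicates 1, 2 and 3. The share in groups 4 and 5 was 3.54%, 3.66% and 3.87% in injured libraries, against 4.86%, 4.26% and 4.48% in sham libraries. Both anterior bands were thus lower in every injured library than in every sham library. In groups 4 and 5 sham replicate 1 had the highest share, and in groups 1 to 3 it was the sham library nearest the injured ones. The share in groups 9 and 10 was 41.7%, 43.1% and 41.6% in injured libraries, against 40.9%, 40.9% and 39.5% in sham libraries, higher in every injured library.

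The other bands overlapped between the groups. Groups 6 to 8 held 35.7%, 34.3% and 36.0% of Hox reads in injured libraries, against 34.2%, 33.9% and 34.3% in sham libraries. Groups 11 to 13 held 0.623%, 0.881% and 0.612% in injured libraries, against 0.761%, 0.740% and 0.444% in sham libraries. Counting error alone, as the half-width of the 95% Wilson interval, was at most 0.498 percentage points for groups 1 to 3, 0.271 for groups 4 and 5 and 0.620 for groups 9 and 10. In each of these 3 bands the intervals of the nearest injured and sham libraries overlapped. Reads were not marked by molecule, so such intervals cover counting error only. Weighted by reads, the mean paralog number was 7.33, 7.38 and 7.34 in injured libraries, against 7.24, 7.24 and 7.14 in sham libraries. The means were 7.35 ± 0.025 in injured cords and 7.21 ± 0.062 in sham cords (SD, n = 3 each), a difference of 0.14 that ran from 0.108 to 0.162 with each library left out.

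**Figure D4:**
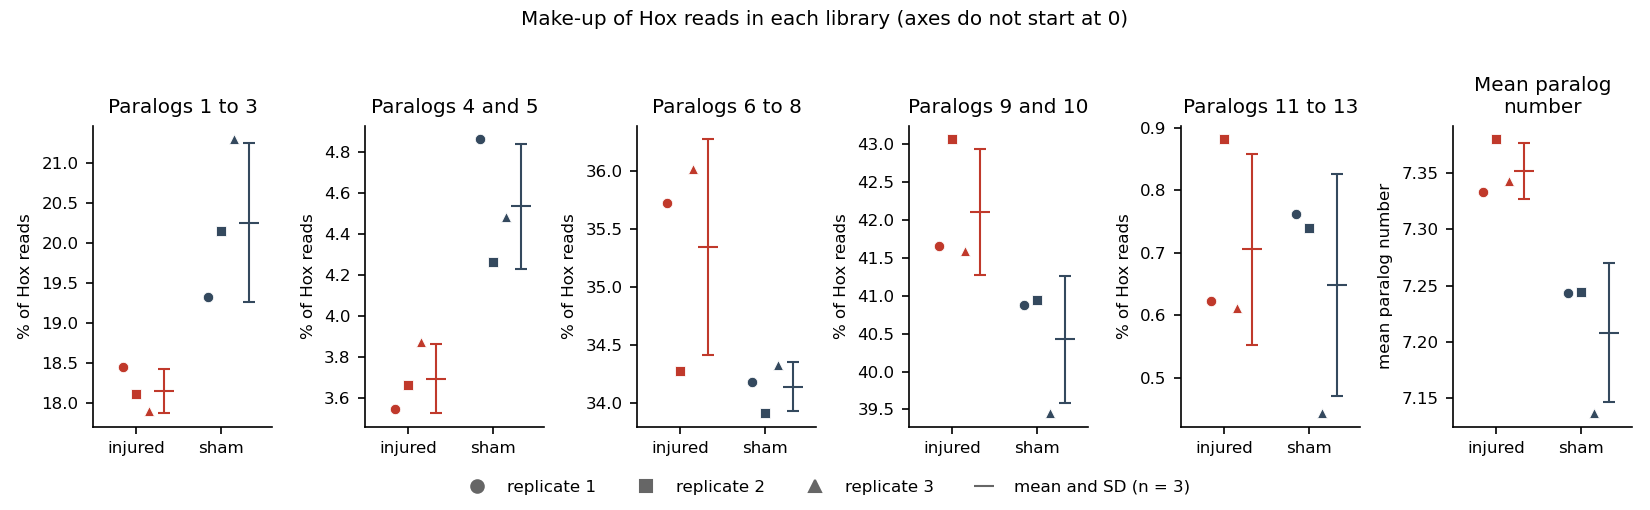
Share of all Hox reads in 5 paralog bands, in percent, and the mean paralog number weighted by reads (y axes, which do not start at 0), for each injured and sham library, with mean and SD. Injured points lie below sham points for groups 1 to 3 and 4 and 5, and above them for groups 9 and 10 and for the mean paralog number. In the other bands injured and sham points overlap.

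Single genes followed the bands only in part. The share of a gene was lower in every injured library than in every sham library for 13 of 38 genes, against 12% of all genes set to the Hox sum, and higher for 5, against 19.0%. Hox genes make up that sum and other genes do not, so the shares over all genes are not a like-for-like background. By CPM, 8 of 38 Hox genes were lower and 0 higher in every injured library, against 21.8% and 22.9% of all genes. The genes of lower share were hoxb2a, hoxb3a, hoxd3a, hoxa4a, hoxb4a, hoxd4a, hoxb5b, hoxb6b, hoxc6a, hoxc6b, hoxa9a, hoxa10b and hoxc10a. The higher ones were hoxb7a, hoxb8a, hoxb9a, hoxb10a and hoxc9a, of which all but hoxc9a lie in the hoxba cluster. By band, 3 of 10 genes of groups 1 to 3 and 4 of 8 genes of groups 4 and 5 were lower and none higher. Groups 6 to 8 held 3 lower and 2 higher, and groups 9 and 10, whose summed share was higher, held 3 of each.

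hoxd4a took 0.289%, 0.298% and 0.258% of Hox reads in injured libraries, against 0.434%, 0.397% and 0.388% in sham libraries. Sham replicate 1 had the highest share. hoxc9a took 6.29%, 6.20% and 6.42% in injured libraries, against 5.55%, 5.01% and 5.06% in sham libraries, and hoxb9a took 11.97%, 11.9% and 12.6%, against 11.2%, 10.5% and 10.7%. The 95% Wilson intervals of hoxc9a, with a half-width of at most 0.289 percentage points, did not overlap between groups. Those of the nearest injured and sham libraries did overlap for hoxd4a (up to 0.361% in injured replicate 2 and down to 0.334% in sham replicate 3) and for hoxb9a (down to 11.6% in injured replicate 2 and up to 11.6% in sham replicate 1). hoxb8a, at 15.7% to 16.6% in injured and 15.4% to 15.7% in sham libraries with a half-width of up to 0.455, was not separated beyond counting error. A share within a family shows unequal change and not that any one gene kept its level. Ratios of a group 4 to a group 9 gene within 1 cluster, which were chosen after values had been seen, were separated between groups in 3 of 4 clusters. The ratio of hoxd4a to hoxd9a reads was 0.106, 0.102 and 0.103 in injured libraries, against 0.152, 0.140 and 0.138 in sham libraries. That of hoxb4a to hoxb9a was 0.0161, 0.0125 and 0.0174 in injured libraries, against 0.0243, 0.0233 and 0.0229 in sham libraries, and that of hoxc4a to hoxc9a 0.0410, 0.0390 and 0.0418 in injured libraries, against 0.0611, 0.0466 and 0.0489 in sham libraries. The ratio of hoxa4a to hoxa9a overlapped, at 0.863, 1.01 and 0.871 in injured libraries and 1.101, 0.982 and 0.938 in sham libraries. The ratio of hoxd4a to its neighbour hoxd3a overlapped between groups, at 0.0824, 0.0860 and 0.0734 in injured libraries and 0.109, 0.0879 and 0.0767 in sham libraries.

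Across the 38 genes the log2 fold change was weakly related to paralog number, with Pearson's r of 0.29 and Spearman's rho of 0.28, as a description over genes that share libraries and clusters. The relation rested on single libraries: r was 0.0014 without sham replicate 3, 0.11 without injured replicate 2, 0.31 without sham replicate 1 and 0.50 without sham replicate 2. The fold change also went with the mean level, with r of 0.39 and rho of 0.41 against mean log2 CPM, and r of 0.36 and rho of 0.37 without sham replicate 1.

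Some libraries of 1 group also differed by paralog number. Over the 6 pairs of libraries within a group, Pearson's r between the difference in log2 CPM and paralog number across the 38 genes was -0.40, -0.04 and 0.44 for injured replicates 1 minus 2, 1 minus 3 and 2 minus 3. For sham replicates 1 minus 2, 1 minus 3 and 2 minus 3 it was -0.18, 0.50 and 0.52. The pairs therefore differed in both sign and size of the relation. The 3 genes of group 11, on 9 to 164 reads, had a median difference of -1.19, -0.63 and 0.55 in these injured pairs and -0.90, 0.17 and 1.07 in these sham pairs.

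Genes of groups 10 and 11, a split chosen after values had been seen, moved together in some pairs and not in others. Between injured replicates 2 and 3, 7 of 7 of them were higher in replicate 2, with a median difference of 0.21 in log2 CPM, and 12 of 31 genes of groups 1 to 9 were, with a median of -0.034. Between sham replicates 2 and 3, 6 of 7 were higher in replicate 2, with a median of 0.23, and 9 of 31 of the others, with a median of -0.047. In injured replicates 1 minus 3, however, group 10 had a median of 0.11 and group 11 of -0.63, and in sham replicates 1 minus 3 group 10 had -0.56 and group 11 had 0.17, so that both groups moved apart. In sham replicates 1 minus 2 all 38 genes were lower in replicate 1, at a median of -0.51 in groups 1 to 9 and -0.77 in groups 10 and 11. Where along the body each sample was cut was not measured here, and its part in the difference between groups was not tested.

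**Figure D5:**
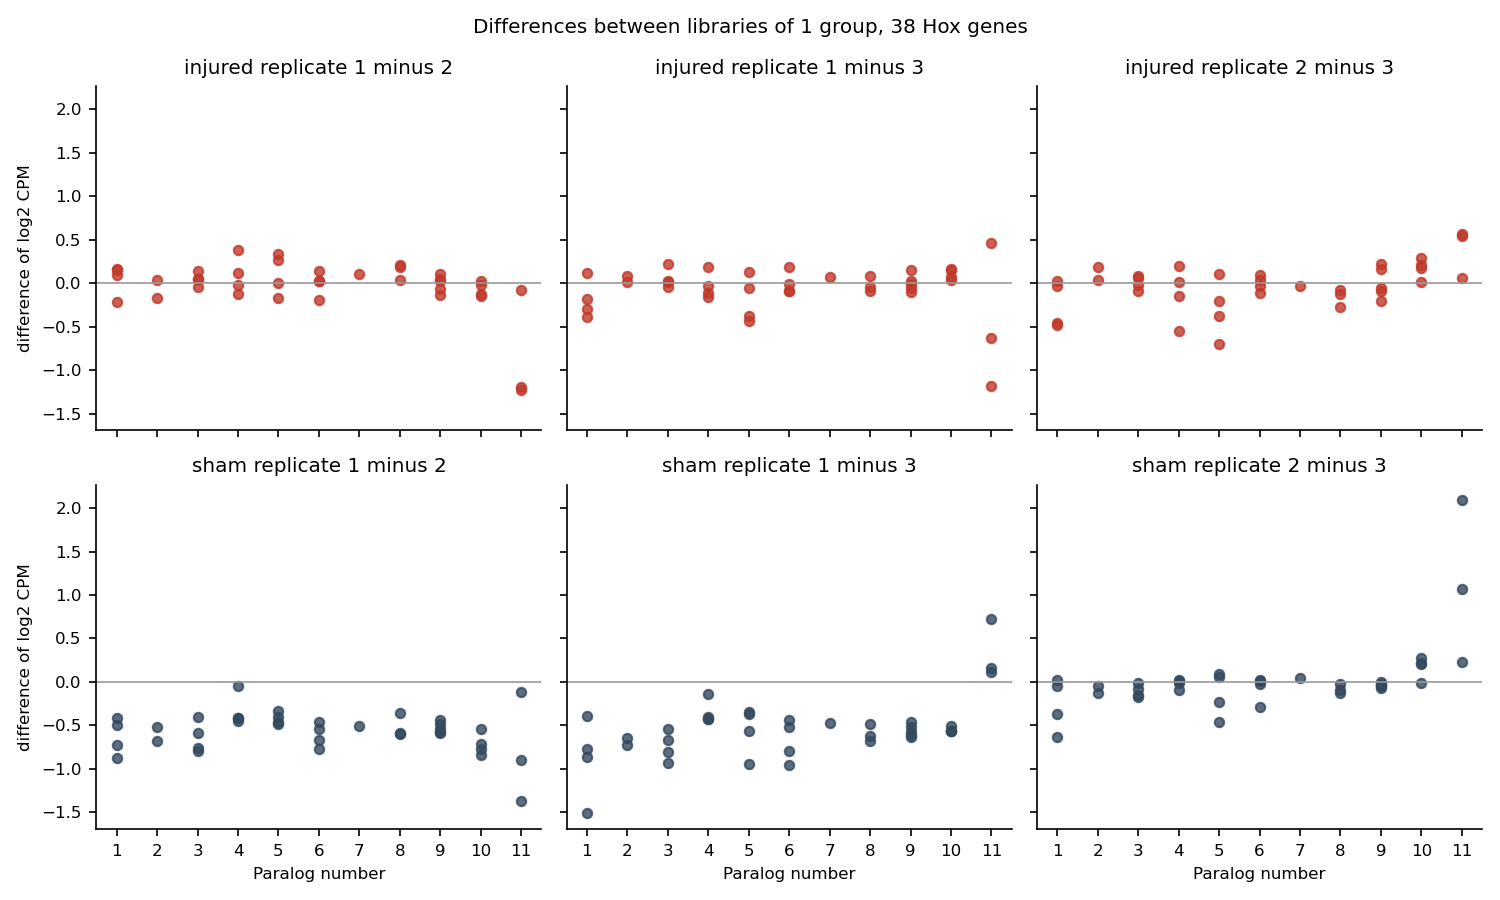
Difference in log2 CPM (y axis) between 2 libraries of 1 group for 38 Hox genes by paralog number (x axis), with the 3 pairs of injured libraries above and the 3 pairs of sham libraries below. Points of groups 10 and 11 lie above 0 in replicates 2 minus 3 of both groups (all 7 in injured, 6 of 7 in sham) and 0 to 5 of the 7 do in the other pairs, and nearly all points lie below 0 where sham replicate 1 is set against another sham library.

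Neurons of the cord express Hox genes, and markers of neurons were read lower in injured cords as well. The 17 genes listed for neurons summed to 14702, 15326 and 14789 CPM in injured replicates, against 19202, 30198 and 34179 CPM in sham replicates 1, 2 and 3. Of them 4 were called lower and none higher, against 4.83% and 5.81% of all genes, with a median log2 fold change of -0.44, near that of the Hox genes. With that sham library left out, 13 were called lower and 1 higher, against 28.2% and 29.0% of all genes, with a median of -0.59. Of 14 motor neuron genes 3 were called lower, chata, isl2a and mnx1, with log2 fold changes of -1.05, -0.98 and -0.98 and edgeR adjusted p of 0.036, 0.043 and 0.044. Of the motor neuron genes 9 were called lower and 1 higher without sham replicate 1.

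How the Hox sum stood against the neuron list depended on a few abundant genes of that list. Over all 17 genes it came to 9.15, 8.61 and 8.95 Hox CPM per 100 neuron-list CPM in injured libraries, against 6.22, 5.92 and 5.27 in sham libraries. Against the motor neuron list it was 152, 152 and 149 per 100 in injured libraries, and 112, 110 and 99.8 in sham libraries. Over both whole lists the groups did not overlap. Without nefma, snap25a, neflb and nefmb, the 4 most abundant genes of the neuron list, it was 33.6, 32.03 and 32.3 per 100 in injured libraries, against 30.1, 33.1 and 29.5 in sham libraries, and the groups overlapped. Without slc18a3a and chata, the 2 most abundant of the motor neuron list, it was 670.4, 631 and 621 per 100 in injured libraries, against 521, 554 and 517 in sham libraries, still with no overlap. Gene by gene, the ratio to the Hox sum was lower in every injured library than in every sham library for 11 of 17 neuron genes and 7 of 14 motor neuron genes, against 12% of all genes, and higher for 2 and 1, against 19.0%. These ratios were chosen after values had been seen. The part of neurons in the Hox differences was not tested.

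Lists of some other cell types held genes called higher. Of 12 genes of ependymo-radial glia, the cells that line the central canal, 3 were called higher and none lower, and of 9 genes of microglia and macrophages 2 were called higher and none lower, against 5.81% of all genes called higher and 4.83% lower. Leaving out sham replicate 1, 5 genes of ependymo-radial glia were called higher and 2 lower, and 7 of microglia and macrophages higher and none lower, against 29.0% of all genes called higher and 28.2% lower. The fibroblast list summed to 16616, 15005 and 11645 CPM in injured libraries and to 12564, 3442 and 2679 CPM in sham libraries. With scaling set by genes other than those of muscle, skin, bone and oocytes, the median of the Hox genes was -0.36.

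Hox proteins bind DNA together with PBC and MEIS cofactors, and calls among these went in both directions. Of 12 tested cofactor genes 2 were called higher and 1 lower, against 5.81% and 4.83% of all genes, with a median log2 fold change of -0.31. When sham replicate 1 was left out, 3 were called higher and 7 lower, against 29.0% and 28.2%, with a median of -0.47. meis1a had 37.4, 36.5 and 38.0 CPM in injured libraries, against 26.3, 26.4 and 24.1 CPM in sham libraries, with sham replicate 1 among the other sham libraries. Its log2 fold change was 0.54 (SE 0.079, edgeR adjusted p = 0.030). pbx4, the main early PBC gene of the zebrafish hindbrain, had 114, 120 and 126 CPM in injured libraries, against 98.2, 82.0 and 92.4 CPM in sham libraries, a log2 fold change of 0.40 (adjusted p = 0.044 in edgeR). pbx1b had 7.40, 8.10 and 8.51 CPM in injured libraries, against 12.5, 11.8 and 13.3 CPM in sham libraries, and was lower by edgeR (log2 fold change -0.65, adjusted p = 0.035). meis3, which works with group 1 Hox proteins in the hindbrain, had 43.0, 40.4 and 40.9 CPM in injured libraries, against 50.3, 92.5 and 96.2 CPM in sham libraries. It was not called with all libraries (log2 fold change -0.94, edgeR adjusted p = 0.057) and was called at -1.19 without sham replicate 1, and its sham libraries were split as those of most Hox genes were.

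Of 9 tested genes that act upstream of Hox genes or border their clusters, 1 was called higher and 1 lower, against 5.81% and 4.83% of all genes. Their median was -0.54. Without sham replicate 1, 2 were called higher and 4 lower, against 29.0% and 28.2% of all genes, with a median of -0.58. mafba, which is needed for rhombomeres 5 and 6 and is also a gene of macrophages, had 107, 116 and 129 CPM in injured libraries, against 89.5, 73.7 and 70.6 CPM in sham libraries (log2 fold change 0.59, edgeR adjusted p = 0.042). men1, the menin subunit of the MLL methyltransferase complex that keeps Hox genes active, had 13.04, 11.9 and 11.7 CPM in injured libraries, against 17.8, 18.7 and 21.3 CPM in sham libraries (log2 fold change -0.66, edgeR adjusted p = 0.035). The groups did not overlap in either gene. gdf11, a signal that in mouse sets the onset of posterior Hox genes, and evx1, a homeobox gene of spinal interneurons, were not called, at -0.77 and -0.75 (edgeR adjusted p = 0.066 and 0.083), and without sham replicate 1 gdf11 was called at -0.89 and evx1 was not, at -0.60.

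Polycomb proteins keep Hox genes silent where they are not used. The list tested also holds kdm6bb, a histone demethylase gene that is not a Polycomb gene and was not called with or without sham replicate 1. Of 19 tested genes of the list 2 were called lower and none higher, against 4.83% and 5.81% of all genes, and the median was -0.05. The test without sham replicate 1 called 6 lower and 6 higher, against 28.2% and 29.0% of all genes, and the median was 0.04. cbx8b, a reader subunit of Polycomb repressive complex 1, had 12.9, 12.6 and 12.8 CPM in injured libraries, against 18.4, 18.3 and 21.7 CPM in sham libraries (log2 fold change -0.61, edgeR adjusted p = 0.035). bmi1a, another subunit of that complex, had 24.7, 23.9 and 23.9 CPM in injured libraries, against 34.9, 30.8 and 30.8 CPM in sham libraries (log2 fold change -0.41, edgeR adjusted p = 0.043). In both genes sham replicate 1 lay among or above the other sham libraries. jarid2b and bmi1b were not called, at 0.46 and -0.24 (edgeR adjusted p = 0.077 and 0.079), and both were called without sham replicate 1, at 0.49 and -0.25. The called genes meis1a, pbx4, pbx1b, mafba, men1, cbx8b and bmi1a were called without that library too, in the same direction. None of these cofactor, upstream or Polycomb genes was called by edgeR when any 1 library other than sham replicate 1 was left out. In those fits edgeR called no gene of the whole series, so this says nothing particular about these lists.

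Counts of some Hox genes are uncertain because gene models may overlap in the annotation used. The effect on the counts was not tested. In RefSeq models of assembly GRCz12tu, which is not the build of the counts, 5 long genes, hoxa3a, hoxb1b, hoxb3a, hoxc3a and hoxd3a, span 13 other members, among them hoxd4a within hoxd3a, hoxb4a and hoxb5a within hoxb3a, and hoxb5b and hoxb6b within hoxb1b. The library kit as named does not mark strand, and reads shared by overlapping models cannot be assigned. A gene within the span of another need not share exons with it, and ambiguous reads were 0.509% to 0.611% of all reads. The 18 genes in such overlaps had a median log2 fold change of -0.42, with 15 called lower without sham replicate 1, against 28.2% of all genes. They include hoxd4a, the 1 Hox gene called lower with all libraries, where 4.83% of all genes were. The 20 genes free of them had a median of -0.27, with 15 called lower without that library and 0 called with all libraries.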

How the data were processed

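RNA-seq was analysed in 3 injured (1 wpi) and 3 sham spinal cord libraries. The deposited files hold raw counts per gene symbol, made by the authors: TopHat2 aligned the reads to danRer10, SAMtools 1.3.1 removed those of low mapping quality and HTSeq 0.6.0 counted the rest. Trim Galore and TopHat2 2.2.1 come from the submitters' processing notes, and the methods give another TopHat2 version. Neither the gene annotation nor the strand setting of the counting is given in the sources used here. The 5 summary rows of each file were left out. Reads without a gene were 41.2% to 42.1% of all reads in injured libraries. They were 43.8% in sham replicate 1, and 50.9% and 51.3% in sham replicates 2 and 3. Ambiguous reads were 0.509% to 0.611%.

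Genes were filtered with filterByExpr (minimum count 10, minimum total 15) and tested with edgeR 4.0.16 in R 4.3.3 (TMM, quasi-likelihood test, injury as the sole term, Benjamini-Hochberg over 12804 genes, threshold 0.05). Standard errors came from the fold change and its F statistic, and log2 CPM used a prior count of 2. Libraries of a group differed by more than sampling noise (chi-square per degree of freedom 11.6 to 163). Alternatives were DESeq2 1.42.0, RLE scaling, upper-quartile scaling, TMM without genes of other tissues, limma-voom (limma 3.58.1) with sample weights, no filter, 10 counts in every library, a replicate block and each library left out. DESeq2 with libraries left out, other scaling without sham replicate 1, shares of Hox reads with their mean paralog number, and the Hox sum against neuron lists without their most abundant genes were chosen after seeing the data. The fits were tested on simulated counts.

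Members, lists and tests were chosen with earlier results of these data known. Genes named with full values are those called, the 10 of highest mean CPM and the lowest and highest fold change of each paralog band among means of at least 1 CPM, with up to 4 genes of each other list by adjusted p; group 4, hoxb5a, hoxc11a and hoxc13b were added after their values were seen. Symbols matched RefSeq (GRCz12tu) for 48 of 48 Hox genes. No sequence is printed.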

Additional observations from a re-analysis of the deposited data

How the results depend on the processing

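Sham replicate 1 and the choice of tool set how many genes passed. Over all genes edgeR called 1362 (744 higher, 618 lower), DESeq2 3766 (1878, 1888) and limma-voom with sample weights 7545 (3740, 3805). With 1 library left out the edgeR total ran from 0 to 7397 (0 to 3750 higher, 0 to 3647 lower), the highest without sham replicate 1 and 0 without any other, with 3026 to 3440 genes at an unadjusted p under 0.05. Without sham replicate 1 DESeq2 called 7033 (3628, 3405), RLE scaling 7394 (3763, 3631) and upper-quartile scaling 7366 (3845, 3521). Hox genes called lower were 1 in edgeR, 6 in DESeq2, 32 in limma-voom, 0 with no filter (lowest adjusted p 0.0544), 0 to 30 with 1 library left out in edgeR and 0 to 28 in DESeq2, and 30 and 29 with RLE and upper-quartile scaling without sham replicate 1. With no filter 10 of 39 Hox genes had an unadjusted p under 0.05, against 4960 of 14159 genes. No setting called a Hox gene higher. Called cofactors were 3 in edgeR, 5 in DESeq2, 10 in limma-voom and 0 to 10 with 1 library left out, and 10 by DESeq2, RLE or upper-quartile scaling without sham replicate 1. Called upstream and neighbouring genes were 2, with 6 in limma-voom, 0 to 6 with 1 library left out, and 5, 6 and 6 by DESeq2, RLE and upper-quartile scaling without sham replicate 1. Called Polycomb genes were 2, with 6 in DESeq2, 11 in limma-voom, 0 to 12 with 1 library left out, and 12 by each of those 3. The cause was not tested.

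Deviations from the group means over all genes correlated at -0.165, -0.026 and 0.067 between injured and sham libraries of equal number. Between unequal numbers the correlation ran from -0.212 to 0.177. With 3 libraries in each group these values cannot settle whether replicate numbers pair the samples. A replicate block left 0 calls over all genes (0 higher, 0 lower), 0 Hox genes, 0 cofactors, 0 upstream genes and 0 Polycomb genes, with 4322 genes and 7 Hox genes at an unadjusted p under 0.05. The median Hox fold change (-0.53 to -0.28), the difference of mean paralog number (0.108 to 0.162) and the summed CPM of the bands from 1 to 10 kept their direction under the alternatives run. The summed CPM of groups 11 to 13, injured minus sham, ran from -1.87 to 0.83. Depth limited hoxb1a, hoxc1a, hoxc11a and hoxc13b, which had at most 44 reads in a library.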
